A study of Caenorhabditis elegans with 12 samples.

Results

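Transcripts of 10 antimicrobial peptide genes of the nematode Caenorhabditis elegans were followed across 4 genotypes of whole day 1 adults. The genes were 2 caenacin genes (cnc-2 and cnc-4), 5 genes of the nlp-29 group (nlp-27, nlp-29, nlp-30, nlp-31 and nlp-34) and 3 defensin-like genes (abf-2, abf-5 and abf-6). They were chosen by name, by matching each gene ID to its symbol, and are 10 of the 46904 genes listed for every library. The 4 genotypes, with 3 libraries each and 12 in all, were the pfd-6(gk493446); daf-2(e1370) double mutant, the daf-2(e1370) mutant, the pfd-6(gk493446) mutant and the wild-type strain N2. daf-2 encodes the insulin/IGF-1 receptor, whose reduced function extends lifespan, and pfd-6 encodes a subunit of prefoldin, a chaperone that hands unfolded actin and tubulin to the chaperonin. Animals of every genotype were raised on control RNA interference bacteria until the fourth larval stage and then moved to plates with FUdR, a drug that blocks the production of progeny, seeded either with those bacteria or with bacteria that target pfd-6. The labels do not say which of these plates a library came from, and the series text also speaks of hsf-1 RNA interference in daf-2 animals, so the comparisons are described by genotype alone. Each genotype is 1 strain with its allele in every cell, and mRNA of whole animals was sequenced in read pairs.

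The worm has no adaptive immune system and relies on barrier tissues that secrete short peptides. In the epidermis, fungal infection and wounding of the cuticle raise nlp-29 and its neighbours through a p38 kinase pathway that ends at the STAT-like factor STA-2 and the transporter-like protein SNF-12, and osmotic stress raises nlp-29 too. The caenacins are raised in the epidermis by fungal infection through the TGF-beta ligand DBL-1. The abf genes encode relatives of the antibacterial factor of the parasitic nematode Ascaris suum, and abf-2 is known from the pharynx. Because whole animals were sequenced, fewer epidermal or pharyngeal cells and less RNA per cell cannot be told apart.

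Values are given as CPM, which are expected counts divided by library size after edgeR's TMM scaling, and total expected counts per library ran from 19394046 to 41009125. All 10 genes passed the filter on low counts and were among the 15090 genes tested. Transcripts of pfd-6 stood at 16.4, 14.4 and 16.9 CPM in the pfd-6;daf-2 libraries and at 21.3, 11.4 and 9.0 CPM in the pfd-6 libraries, against 158, 77.6 and 66.4 CPM in daf-2 and 143, 86.9 and 102 CPM in N2. Replicate 3 of daf-2 and replicate 3 of pfd-6 stood apart from the other 10 libraries. Genes with exons of at most 714 bp, the length of the longest of the 10 peptide genes, held 6.81% of all counts in the daf-2 library and 6.84% in the pfd-6 library, against 12.7% to 27.3% in the other 10 libraries. For ribosomal protein genes the shares in these libraries were 1.41% and 0.609%, against 9.33% to 15.9%. The summed level of the 10 peptide genes was 30.3 CPM in daf-2 replicate 3 and 15.9 CPM in pfd-6 replicate 3, against 123.2 to 323 CPM elsewhere, as the plot of the sum against the short-gene share shows. The peptide genes are all short, with exon lengths of 258 to 714 bp, and the part of transcript length in these low values was not tested. Results of the peptide genes and pathway lists are therefore given with and without these libraries where that changes a call.

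**Figure D1:**
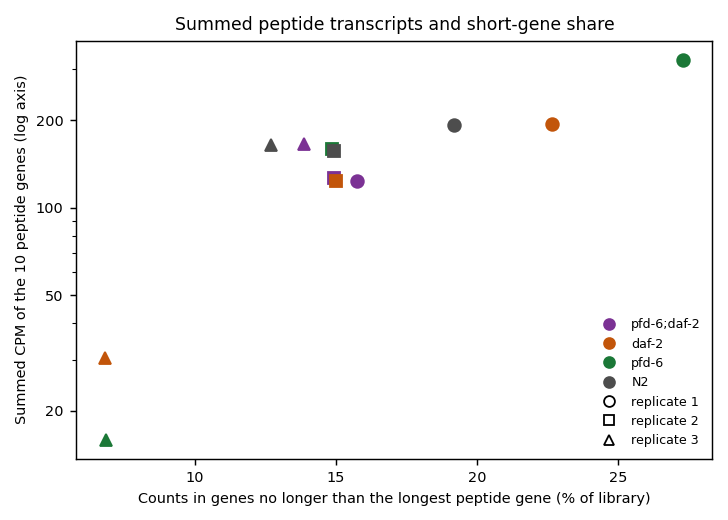
Summed level of the 10 peptide genes in CPM (log axis) against the percentage of each library's counts in genes with exons of at most 714 bp; colours mark genotypes and symbols mark replicates. Replicate 3 of daf-2 and of pfd-6 lie at the lower left, at 30.3 and 15.9 CPM, and the other 10 libraries lie between 123.2 and 323 CPM.

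The caenacin genes lie close together on chromosome V of the WBcel235 assembly. cnc-2 (WBGene00000556) spans 1449665 to 1450183 on the minus strand and cnc-4 (WBGene00000558) spans 1447195 to 1447707 on the plus strand, a stretch of 2.989 kb that also holds cnc-3. The nlp genes form a second cluster on chromosome V, within 10.946 kb. In order along the chromosome they are nlp-34 (WBGene00015046, 3978825 to 3979134, minus strand), nlp-31 (WBGene00003769, 3980055 to 3980622), nlp-30 (WBGene00003768, 3981980 to 3982741), nlp-29 (WBGene00003767, 3984425 to 3984847) and nlp-27 (WBGene00003765, 3989378 to 3989770), the last 4 on the plus strand. abf-2 (WBGene00000013) lies on chromosome I from 3885631 to 3885888 on the minus strand. The genes abf-5 (WBGene00000016, 12792854 to 12793386) and abf-6 (WBGene00000017, 12794118 to 12794870) lie side by side on the plus strand of chromosome X. All 10 are annotated as protein coding.

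Levels per kilobase of exon placed nlp-27 first of the 10 genes in every genotype. Its level was 303 ± 80.9 CPM per kb in pfd-6;daf-2, 181 ± 146 CPM per kb in daf-2, 374 ± 371 CPM per kb in pfd-6 and 402 ± 68.0 CPM per kb in N2 (SD, n = 3 each). nlp-31 came next in pfd-6;daf-2, daf-2 and N2, at 40.9 ± 9.61, 53.4 ± 35.01 and 36.3 ± 22.3 CPM per kb. In pfd-6 the place after nlp-27 was held by cnc-2, at 36.4 ± 32.9 CPM per kb, which was last of the 10 in pfd-6;daf-2, at 0.833 ± 0.253 CPM per kb. In the single mutants the ranks, also that of nlp-27 above the next gene, rest on means whose SDs mostly overlap.

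**Figure D2:**
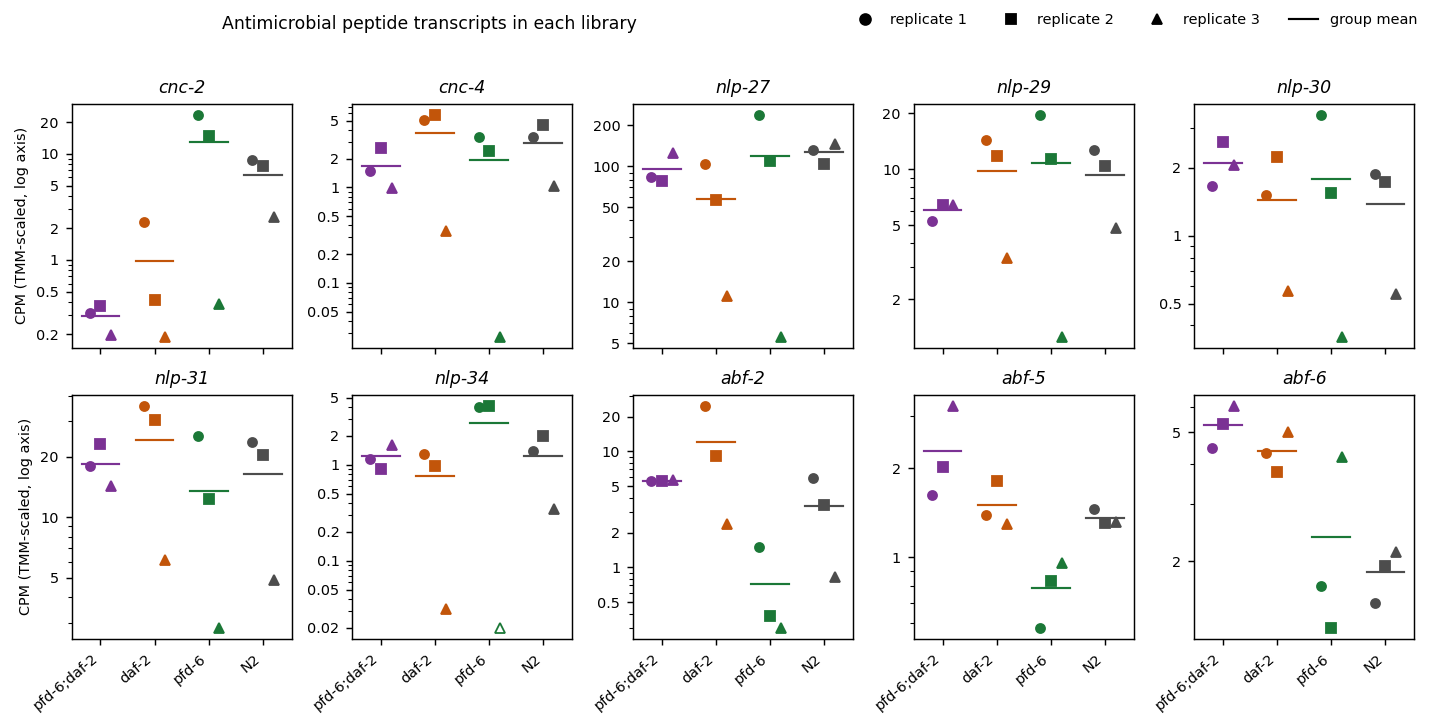
CPM of each peptide gene in each library on log axes that differ between panels, for pfd-6;daf-2, daf-2, pfd-6 and N2 from left to right; symbols mark replicates and bars mark group means. cnc-2 lies at 0.371 CPM or below in every pfd-6;daf-2 library, replicate 3 of daf-2 and of pfd-6 is low for the nlp genes, and the open symbol marks nlp-34 at 0 in pfd-6 replicate 3, drawn at the foot of the panel.

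The caenacin gene cnc-2 was scarce in the double mutant and in daf-2, and abundant in most libraries of pfd-6 and N2. Its level was 0.317, 0.371 and 0.196 CPM in replicates 1, 2 and 3 of pfd-6;daf-2, 2.30, 0.420 and 0.189 CPM in daf-2, 23.4, 14.8 and 0.384 CPM in pfd-6 and 8.83, 7.63 and 2.55 CPM in N2. Every double mutant library lay below every pfd-6 and every N2 library and within the range of the daf-2 libraries. The gap to pfd-6 replicate 3 was narrow, with 12 counts in the highest double mutant library and 14 counts in that pfd-6 library, whereas pfd-6 replicates 1 and 2 held 769 and 391 counts. Compared with pfd-6, the double mutant had 42.3-fold less cnc-2 (log2 fold change -5.40, SE 1.29, adjusted p = 0.0430 in edgeR's quasi-likelihood test with Benjamini-Hochberg adjustment over all genes). This was the single call among the 10 genes in the 6 comparisons. The adjusted p lies close to the threshold of 0.05, and over the 24 alternative settings it ran from 1.2e-05 to 0.211. With 1 library left out at a time, the call was lost in 8 of 12 fits (edgeR adjusted p = 0.0516 to 0.178), those without any of the pfd-6;daf-2 libraries, daf-2 replicate 2, or replicate 1 or 2 of pfd-6 or of N2. With the 2 libraries that stood apart left out, the log2 fold change was -5.98 (SE 0.78, edgeR adjusted p = 0.00614).

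Against N2, cnc-2 in the double mutant had a log2 fold change of -4.39 (SE 1.25), which did not pass the threshold (edgeR adjusted p = 0.0778). The labels do not say whether libraries of the same replicate number were handled together. In these 2 groups their deviations from the genotype means correlated, at 0.33, 0.368 and 0.501. Blocking on that number gave -4.50 for cnc-2, which passed (edgeR adjusted p = 0.0226, and 0.000874 to 0.277 over the alternatives). In daf-2 against N2 its log2 fold change was -2.72 (SE 1.12, edgeR adjusted p = 0.426), with all daf-2 libraries below all N2 libraries. In pfd-6 against N2 the value was 1.01 (SE 1.04, edgeR adjusted p = 0.723), and replicates 1 and 2 of pfd-6 were above every N2 library while replicate 3 was below every one. Set against daf-2, the double mutant gave -1.67 (SE 1.19, edgeR adjusted p = 0.573), with overlapping groups, and without daf-2 replicate 1 this was -0.023. The interaction subtracts the daf-2 versus N2 log2 fold change from that of pfd-6;daf-2 versus pfd-6. It was -2.68 for cnc-2 (SE 1.58, edgeR adjusted p = 0.376), so the effect of daf-2 on cnc-2 was not shown to differ between the backgrounds.

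Its neighbour cnc-4 passed in no comparison. Pearson's r between the log2 CPM of cnc-2 and cnc-4 was 0.49 over 12 libraries, and 0.34 without replicate 3 of daf-2 and of pfd-6. cnc-4 had 1.48, 2.60 and 0.982 CPM in pfd-6;daf-2, 5.11, 5.75 and 0.347 CPM in daf-2, 3.38, 2.42 and 0.0274 CPM in pfd-6 and 3.33, 4.45 and 1.04 CPM in N2. Replicate 3 was the lowest library in every genotype, and the groups overlapped in every comparison. Its log2 fold change was -1.13 (SE 1.101) in pfd-6;daf-2 against daf-2 and -0.81 (SE 1.098) against N2, neither past the threshold (edgeR adjusted p = 0.698 and 0.806). For cnc-3, the gene between them, levels were 1.45, 1.24 and 1.23 CPM in pfd-6;daf-2, 3.28, 2.03 and 0.505 CPM in daf-2, 10.98, 6.80 and 0.549 CPM in pfd-6 and 5.99, 4.72 and 4.49 CPM in N2. For pfd-6;daf-2 against pfd-6 the log2 fold change of cnc-3 was -2.22 (SE 0.83, edgeR adjusted p = 0.162). Without replicate 3 of daf-2 and of pfd-6 it was -2.78 and passed (SE 0.36, edgeR adjusted p = 0.00619; 0.00619 to 0.454 over the alternatives). Against N2 cnc-3 had -1.956 (SE 0.83, edgeR adjusted p = 0.272) in the double mutant. Without those libraries its value was -1.91 and passed (SE 0.34, edgeR adjusted p = 0.0113, and 0.00987 to 0.543 over the alternatives). Those libraries belong to neither of these groups, so the counts compared stayed the same and the fit they share changed.

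None of the 5 nlp genes passed the threshold in any of the 6 comparisons when edgeR was run on all 12 libraries, and for each of them the compared groups overlapped in all 5 pairwise comparisons. Their counts at an unadjusted p and by DESeq2 and limma-voom are among those given below for all 10 genes. nlp-29, the best studied reporter gene of the epidermal response, had 5.29, 6.41 and 6.43 CPM in pfd-6;daf-2, 14.4, 11.8 and 3.34 CPM in daf-2, 19.7, 11.3 and 1.26 CPM in pfd-6 and 12.7, 10.5 and 4.83 CPM in N2. The double mutant libraries lay close together and below replicates 1 and 2 of each other genotype, but above replicate 3 of each. Its log2 fold change was -0.71 (SE 0.75) in pfd-6;daf-2 against daf-2 and -0.63 (SE 0.75) against N2, with edgeR adjusted p = 0.733 and 0.777.

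nlp-27, the most abundant of the group, had 84.1, 77.9 and 125 CPM in pfd-6;daf-2, 104, 56.8 and 11.1 CPM in daf-2, 239.5, 109.7 and 5.597 CPM in pfd-6 and 132, 103 and 146 CPM in N2. In the double mutant and in N2 replicate 3 was the highest library, while in both single mutants it was the lowest by far. The log2 fold change in daf-2 against N2 was -1.15 (SE 0.93, edgeR adjusted p = 0.715), and in pfd-6;daf-2 against daf-2 it was 0.74 (SE 0.92, edgeR adjusted p = 0.776). For nlp-31, whose peptide is known to be antimicrobial in vitro, levels were 17.98, 22.97 and 14.3 CPM in pfd-6;daf-2, 35.7, 30.5 and 6.12 CPM in daf-2, 25.3, 12.2 and 2.83 CPM in pfd-6 and 23.8, 20.5 and 4.902 CPM in N2. Replicate 3 was the lowest library of nlp-31 in all 4 genotypes. Between daf-2 and N2 the log2 fold change was 0.55 (SE 0.77, edgeR adjusted p = 0.835).

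The remaining pair of the cluster was scarce. nlp-30 had 1.66, 2.60 and 2.06 CPM in pfd-6;daf-2, 1.52, 2.23 and 0.568 CPM in daf-2, 3.45, 1.55 and 0.357 CPM in pfd-6 and 1.88, 1.74 and 0.552 CPM in N2. Its log2 fold change in pfd-6;daf-2 against N2 was 0.57 (SE 0.72, edgeR adjusted p = 0.789). nlp-34 had 1.16, 0.898 and 1.62 CPM in pfd-6;daf-2, 1.29, 0.969 and 0.0315 CPM in daf-2, 4.02, 4.12 and 0 CPM in pfd-6 and 1.38, 1.998 and 0.345 CPM in N2. The 0 in pfd-6 replicate 3 allows a level of up to 0.0823 CPM, which is 3 counts in that library and covers counting error only. Replicates 1 and 2 of pfd-6 were the highest of all 12 libraries for nlp-34 and its replicate 3 the lowest. The log2 fold change of nlp-34 was 1.09 (SE 1.21, edgeR adjusted p = 0.743) in pfd-6 against N2 and -1.15 (SE 1.22, edgeR adjusted p = 0.635) in pfd-6;daf-2 against pfd-6, and limma-voom gave the opposite sign for both, -1.07 and 1.13. With replicates 1 and 2 alone, nlp-34 passed in pfd-6;daf-2 against pfd-6, at -1.92 (SE 0.35, edgeR adjusted p = 0.0313; 0.0313 to 0.996 over the alternatives).

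For each of the 3 abf genes every pfd-6;daf-2 library was above every pfd-6 library, as for 14.6% of all tested genes. None passed the threshold in the edgeR fit with genotype alone, and each passed under some other settings, as given below. abf-2 had 5.604, 5.603 and 5.65 CPM in pfd-6;daf-2, 24.8, 9.20 and 2.37 CPM in daf-2, 1.49, 0.378 and 0.302 CPM in pfd-6 and 5.96, 3.44 and 0.828 CPM in N2. The double mutant libraries agreed closely, while replicates 1 and 3 of daf-2 lay on either side of them. Over pfd-6, the double mutant gave a log2 fold change of 2.94 (SE 0.89, edgeR adjusted p = 0.0954), and over the alternatives the adjusted p ran from 0.00722 to 0.251. In the single mutants abf-2 gave 1.81 (SE 0.84) in daf-2 against N2 and -2.24 (SE 0.87) in pfd-6 against N2, with edgeR adjusted p = 0.499 and 0.614 and overlapping groups. Its log2 fold change in the double mutant was -1.11 (SE 0.82) against daf-2 and 0.70 (SE 0.82) against N2, with edgeR adjusted p = 0.590 and 0.774, and without daf-2 replicate 1 the value against daf-2 was -0.048.

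abf-5 had 1.62, 2.01 and 3.241 CPM in pfd-6;daf-2, 1.39, 1.81 and 1.29 CPM in daf-2, 0.579, 0.832 and 0.960 CPM in pfd-6 and 1.46, 1.31 and 1.31 CPM in N2. All pfd-6 libraries lay below all libraries of the other genotypes, and replicate 3 of each single mutant lay near its other replicates. The log2 fold change was 1.53 (SE 0.39, edgeR adjusted p = 0.0550) in pfd-6;daf-2 against pfd-6, and over the alternatives the adjusted p ran from 0.00602 to 0.301. In pfd-6 against N2 it was -0.78 (SE 0.39, edgeR adjusted p = 0.614). The interaction for abf-5 was 1.39 (SE 0.55, edgeR adjusted p = 0.251).

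abf-6 had 4.48, 5.29 and 6.04 CPM in pfd-6;daf-2, 4.33, 3.78 and 5.02 CPM in daf-2, 1.68, 1.25 and 4.20 CPM in pfd-6 and 1.48, 1.93 and 2.14 CPM in N2. Every library of both daf-2 genotypes was above every N2 library, and replicate 3 of pfd-6 was the high library of its group. The log2 fold change was 1.25 (SE 0.44, edgeR adjusted p = 0.308) in daf-2 against N2 and 1.51 (SE 0.44, edgeR adjusted p = 0.0854) in pfd-6;daf-2 against N2. Blocking on the replicate number left this at 1.51, and it passed (SE 0.36, edgeR adjusted p = 0.0363; 0.0143 to 0.341 over the alternatives). Set against pfd-6 it was 1.14 (SE 0.43, edgeR adjusted p = 0.167), and 1.83 without replicate 3 of daf-2 and of pfd-6 (SE 0.34, edgeR adjusted p = 0.0240; 0.0240 to 0.469 over the alternatives). The interaction of abf-6 was -0.10 (SE 0.61, edgeR adjusted p = 0.939).

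Part of the abf genes lies over other genes, and the sources used here do not say whether reads were counted by strand. abf-2 overlaps C50F2.2 on the opposite strand, so reads of the pair may not be told apart. C50F2.2 stood at 95.3 ± 7.90 CPM in pfd-6;daf-2, 64.1 ± 22.4 CPM in daf-2, 58.6 ± 41.1 CPM in pfd-6 and 85.0 ± 25.2 CPM in N2 (SD, n = 3 each), and in pfd-6;daf-2 against pfd-6 its log2 fold change was 0.70 (SE 0.44, edgeR adjusted p = 0.395). abf-5 and abf-6 lie within the span of nhr-27 on the opposite strand, which had no counts in 11 of the 12 libraries and 0.0378 CPM in pfd-6 replicate 2. The peptide genes belong to families with close relatives, and whether reads shared between relatives were split is not given in the sources used here; the expected counts of the 10 genes were whole numbers in all 120 values.

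Counted by comparison, 0 of the 10 genes passed in daf-2 against N2, where 0.934% of all tested genes did, and 0 passed in pfd-6 against N2, where 0.0994% did. In pfd-6;daf-2 the count was 0 against daf-2, beside 3.11% of all genes, 1 against pfd-6, beside 3.29%, and 0 against N2, beside 3.19%. In the interaction 0 passed, beside 0.139% of all genes. By edgeR's unadjusted p under 0.05 the counts were 2 (cnc-2 and abf-6) in daf-2 against N2, 1 (abf-2) in pfd-6 against N2, 0 in pfd-6;daf-2 against daf-2, 4 (cnc-2, abf-2, abf-5 and abf-6) against pfd-6, 2 (cnc-2 and abf-6) against N2 and 1 (abf-5) in the interaction. The same limit was met by 10.1%, 6.93%, 15%, 20.4%, 15.3% and 17.4% of all tested genes in these comparisons. DESeq2 called 3 of the 10 in pfd-6;daf-2 against pfd-6 and 2 against N2, where it called 8.55% and 7.81% of all genes. It called 0 in daf-2 against N2, pfd-6 against N2, pfd-6;daf-2 against daf-2 and the interaction, beside 2.66%, 0.205%, 6.07% and 2.96% of all genes. limma-voom called 0 of the 10 in all 6, beside 0.934% in daf-2 against N2, 0.113% in pfd-6 against N2, 3.28%, 4.07% and 4.24% in the double mutant against daf-2, pfd-6 and N2, and 0.139% in the interaction.

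Both comparisons of the double mutant in which other settings gave more calls share its 3 libraries. For pfd-6;daf-2 against pfd-6, leaving out replicate 3 of daf-2 and of pfd-6 gave 3 calls (cnc-2 lower, abf-5 and abf-6 higher), beside 3.86% of all genes. The replicate block also gave 3 there (cnc-2, abf-2 and abf-5), beside 9.91%, although replicate numbers were not taken to pair these groups. Replicates 1 and 2 alone gave 3 (cnc-2, nlp-34 and abf-6), beside 3.71%. A transcript length offset gave 2 (cnc-2 and abf-2) without and with the block, beside 7.63% and 16.5%. The compared groups alone and an adjusted p under 0.01 gave 0, beside 1.72% and 0.424%. In pfd-6;daf-2 against N2, leaving out replicate 3 of daf-2 and of pfd-6 gave 2 calls (cnc-2 lower and abf-6 higher), beside 8.18% of all genes. Those libraries belong to neither of these groups, so the counts compared stayed the same. The replicate block gave 2, the same pair, beside 6.61%. Replicates 1 and 2 alone and the compared groups alone also gave cnc-2 and abf-6 against N2, beside 5.37% and 10.4%, and the length offset gave cnc-2 without and with the block, beside 3.61% and 9.13%. The median log2 fold change of the 10 genes was 0.03 in pfd-6;daf-2 against pfd-6 and 0.05 against N2, and that of all tested genes was -0.02 and -0.07. In either comparison 5 of the 10 were positive and 5 negative.

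**Figure D3:**
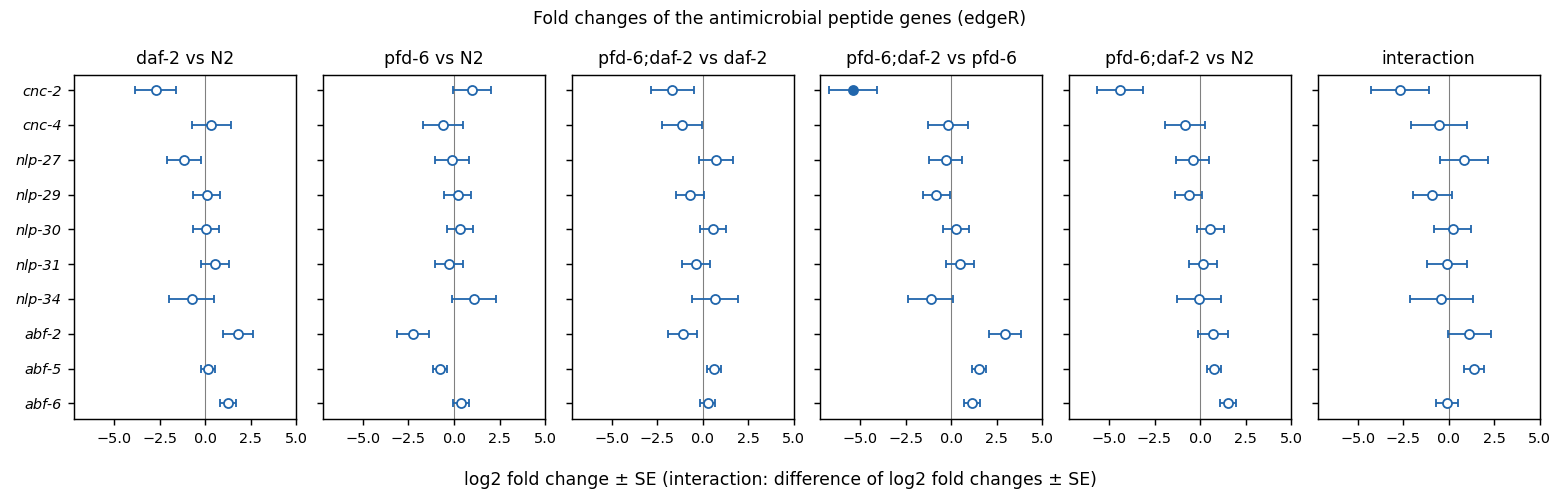
Log2 fold change ± SE of each peptide gene in the 6 comparisons, with the group named first over the group named after vs; the last panel shows the difference between the daf-2 effects in the pfd-6 and wild-type backgrounds. The filled point, cnc-2 in pfd-6;daf-2 vs pfd-6 at -5.40, is the single one with an edgeR adjusted p under 0.05.

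Groups whose libraries did not overlap were counted as a description beside these tests. In pfd-6;daf-2 against pfd-6, abf-2, abf-5 and abf-6 were higher in every library and cnc-2 was lower in every library, while 14.6% of all tested genes were so higher and 13.9% so lower. In pfd-6;daf-2 against N2, abf-5 and abf-6 were higher and cnc-2 lower in every library, where 18.6% and 17.4% of all genes were. Against daf-2 the double mutant overlapped for all 10 genes, where 14.4% of all genes were higher and 14.2% lower without overlap. In daf-2 against N2, abf-6 was higher and cnc-2 lower without overlap, beside 10.6% and 7.66% of all genes, and in pfd-6 against N2 abf-5 was lower without overlap, beside 2.75%, and 0 were higher, beside 4.71%.

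The nlp genes ran together across the 12 libraries, and less so without the 2 libraries that stood apart. Over 12 libraries, Pearson's r of log2 CPM between pairs of nlp genes ran from 0.66 to 0.90, and between cnc-4 and the nlp genes from 0.79 to 0.93. Without replicate 3 of daf-2 and of pfd-6, over 10 libraries, the same pairs ran from -0.28 to 0.76 and from -0.26 to 0.79. Between the abf genes r was 0.41 to 0.64 over 12 libraries and 0.56 to 0.78 over 10. cnc-2 ran opposite to the abf genes, from -0.93 to -0.24 over 12 libraries and from -0.92 to -0.53 over 10, and the lowest value in both was its r with abf-6. These libraries share genotypes and depths, so the coefficients describe the 12 libraries and carry no test.

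**Figure D4:**
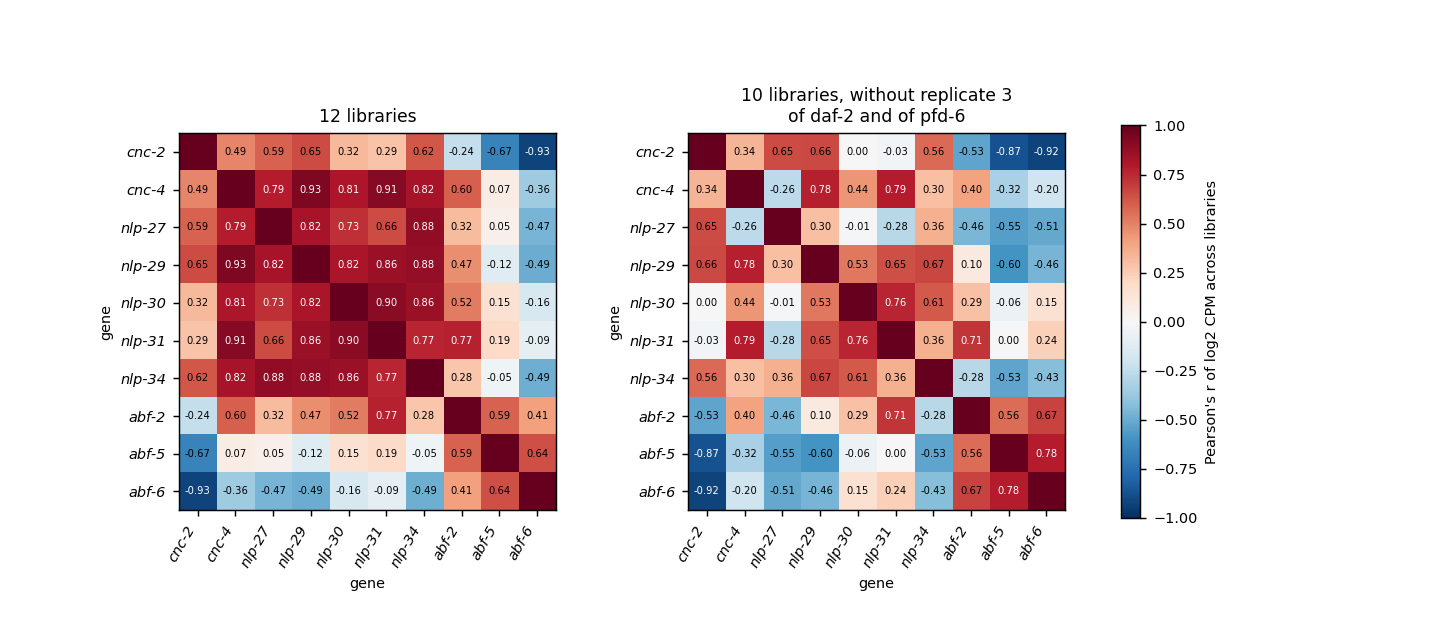
Pearson's r of log2 CPM between each pair of peptide genes across all 12 libraries (left) and across the 10 libraries left without replicate 3 of daf-2 and of pfd-6 (right); red is positive and blue negative. The block of nlp genes with cnc-4 is red on the left, at 0.66 or higher, and mixed on the right, while cnc-2 with abf-6 stays at -0.93 and -0.92.

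The tested genes whose log2 CPM ran most like cnc-2 over the 12 libraries were hut-1 (r = 0.94), cnc-3 (0.93), ddo-3 (0.93), fat-7 (0.92), which encodes a stearoyl-CoA desaturase, and F58B6.1 (0.92). For nlp-29 they were ZK813.3, R04D3.4, mxl-1, Y37D8A.25 and ZK154.4, with r of 0.97 each. For abf-2 they were F56D6.9 (0.92), Y34F4.3 (0.92), gst-39 (0.91), skr-4 (0.91) and C04A11.5 (0.91). Over the 10 libraries without replicate 3 of daf-2 and of pfd-6, r with these genes was 0.91 to 0.98 for cnc-2, 0.90 to 0.95 for nlp-29 and 0.89 to 0.95 for abf-2. It was higher than over 12 libraries for hut-1, cnc-3, ddo-3, Y34F4.3 and C04A11.5 and lower for the other 10 genes.

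Among the 18 other cnc, nlp and abf genes, 10 had enough counts to be tested. In the edgeR fit of all 12 libraries with genotype alone, 0 of them passed in any of the 6 comparisons. The calls of cnc-3 without 2 of the libraries are given above. In pfd-6;daf-2 against pfd-6, cnc-3 also passed with the transcript length offset, at -2.17 (SE 0.59, edgeR adjusted p = 0.0441), beside 7.63% of all genes. nlp-25 passed there with the replicate block, at 2.36 (SE 0.64, edgeR adjusted p = 0.0460), beside 9.91%. The smallest p belonged to cnc-11, with a log2 fold change of 3.55 (SE 1.05, edgeR adjusted p = 0.183) in daf-2 against N2. The count filter was met for cnc-11 by 2 daf-2 libraries and 1 pfd-6;daf-2 library and by no pfd-6 or N2 library. It entered the tests only through the groups in which it was high, so this value is given as a description. Per comparison 0 to 1 of the 10 had an unadjusted edgeR p under 0.05, beside 6.93% to 20.4% of all tested genes. DESeq2 and limma-voom called 0, beside 0.205% to 8.55% and 0.113% to 4.24%. cnc-11 had 0.981, 0.807 and 0.126 CPM in daf-2, against 0, 0.0982 and 0.0690 CPM in N2. nlp-28, the gene between nlp-29 and nlp-27, had 14.1, 18.5 and 25.3 CPM in pfd-6;daf-2, 64.3, 26.4 and 14.6 CPM in daf-2, 20.1, 13.5 and 5.13 CPM in pfd-6 and 29.04, 19.5 and 16.6 CPM in N2, with overlap between the double mutant and each other genotype.

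The fip and fipr genes, first known as transcripts induced by fungal infection, held the calls among the related lists in the edgeR fit with genotype alone. Both genes called, fipr-7 and fipr-23, entered the tests only through groups in which they were high. These calls therefore describe the libraries and are not support for a change of the list. Of 37 listed genes 18 were tested, and 2 (fipr-7 and fipr-23) rose in pfd-6;daf-2 against pfd-6, beside 3.29% of all genes, and 1 (fipr-7) against N2, beside 3.19%, with 0 in the other 4 comparisons. fipr-7 had 0.634, 0.341 and 0.786 CPM in pfd-6;daf-2, against 0 counts in the 3 pfd-6 libraries, and was at least 18.7-fold higher when pfd-6 was set to 3 counts over the group (edgeR adjusted p = 0.0120; 0.000241 to 0.0568 over the alternatives, lost with replicates 1 and 2 alone). The count filter was met for fipr-7 by the 3 double mutant libraries and no other library, so it entered the tests only through the group in which it was high, and its calls are given as a description. Against N2, where 1 library had 0.0521 CPM and the other libraries none, its log2 fold change was 4.43 (SE 0.87, edgeR adjusted p = 0.0274), and the call was lost without any 1 library of either genotype (0.0558 to 0.158). fipr-23 had 0.282, 1.33 and 0.638 CPM in pfd-6;daf-2, against 0.0610, 0.0378 and 0 CPM in pfd-6, and a log2 fold change of 4.40 (SE 1.08, edgeR adjusted p = 0.0462). This call was lost in 11 of the 12 fits with 1 library left out, all but the one without daf-2 replicate 3 (edgeR adjusted p = 0.0525 to 0.156). The count filter was met for fipr-23 by 3 daf-2 and 2 pfd-6;daf-2 libraries and by no pfd-6 or N2 library. It too entered the tests only through groups in which it was high, so its calls here and below are given as a description. fipr-26 had 6.66, 5.30 and 0.852 CPM in daf-2, against 0.495, 0.426 and 0.276 CPM in N2. Its log2 fold change there was 3.37 (SE 0.80, edgeR adjusted p = 0.0766), and 3.21 with the replicate block, which passed beside 1.68% of all genes (SE 0.57, edgeR adjusted p = 0.0229; 0.0011 to 0.317 over the alternatives). The block also added fipr-24 in pfd-6;daf-2 against N2, at 2.99 (SE 0.76, edgeR adjusted p = 0.0446; 0.0296 to 0.564 over the alternatives). Without replicate 3 of daf-2 and of pfd-6, 2 fipr genes (fipr-23 and fipr-26) rose in daf-2 against N2, beside 1.46% of all genes. In pfd-6;daf-2, 3 (fipr-2, fipr-7 and fipr-23) then rose against pfd-6, beside 3.86%, and 3 (fipr-4, fipr-7 and fipr-24) against N2, beside 8.18%. The libraries left out belong to neither group of the last comparison. The calls of fipr-7 and fipr-23 are again a description, and which libraries met the count filter is not given for fipr-2 and fipr-4. An unadjusted edgeR p under 0.05 was met by 7 genes in daf-2 against N2, 2 in pfd-6 against N2 and 3 in the interaction. In pfd-6;daf-2 it was met by 6 against daf-2, 5 against pfd-6 and 5 against N2. The shares of all tested genes ran from 6.93% to 20.4%. DESeq2 called 0 to 5 genes, beside 0.205% to 8.55%, and limma-voom 0 to 1, beside 0.113% to 4.24%.

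The genes of the signalling pathways upstream of the peptides gave few calls. Of the 16 tested genes of the epidermal p38 and STA-2 pathway, 0 passed in any of the 6 comparisons in the edgeR fit with genotype alone. snf-12 came nearest, with 6.98, 6.44 and 7.12 CPM in pfd-6;daf-2, against 1.89, 2.45 and 2.46 CPM in daf-2 and 1.82, 2.91 and 2.62 CPM in N2. In pfd-6 it had 1.80, 3.44 and 5.10 CPM, and the log2 fold change of pfd-6;daf-2 against pfd-6 was 0.99 (SE 0.39, edgeR adjusted p = 0.181). Every double mutant library was above every library of each other genotype. Of all tested genes this held for 14.4% against daf-2, 14.6% against pfd-6 and 18.6% against N2. The log2 fold change of snf-12 was 1.59 (SE 0.40, edgeR adjusted p = 0.0507) against daf-2 and 1.48 (SE 0.40, edgeR adjusted p = 0.0625) against N2. With the replicate block it passed in both, at 1.62 (edgeR adjusted p = 0.0239; 0.00241 to 0.211 over the alternatives) and 1.52 (edgeR adjusted p = 0.0270; 0.00694 to 0.258), where 5.39% and 6.61% of all genes passed. Without replicate 3 of daf-2 and of pfd-6 it passed against N2, at 1.53 (SE 0.31, edgeR adjusted p = 0.0176), although those libraries belong to neither group. In the 6 comparisons this pathway gave 0 to 2 genes with an unadjusted edgeR p under 0.05, 0 to 2 by DESeq2 and 0 to 1 by limma-voom. The matching shares of all tested genes were 6.93% to 20.4%, 0.205% to 8.55% and 0.113% to 4.24%.

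Of the DBL-1 pathway, which acts on the caenacins, 11 of 11 genes were tested and 0 passed in any comparison. The smallest p was that of sma-10, at -1.26 (SE 0.60, edgeR adjusted p = 0.303) in the interaction. Of the TOL-1 pathway 3 of 4 were tested and 0 passed, with pik-1, an IRAK-like kinase gene, at -0.89 (SE 0.29, edgeR adjusted p = 0.150) in pfd-6;daf-2 against daf-2. With the transcript length offset pik-1 passed there, at -1.02 (SE 0.23, edgeR adjusted p = 0.0302; 0.0185 to 0.496 over the alternatives), beside 3.95% of all genes. Of 7 genes of the osmotic response and its negative regulators 6 were tested and 0 passed, with osm-7 at 1.07 (SE 0.43, edgeR adjusted p = 0.247) in pfd-6;daf-2 against daf-2. An unadjusted edgeR p under 0.05 was reached per comparison by 0 genes of the DBL-1 pathway, 0 to 1 of the TOL-1 pathway and 0 to 2 of the osmotic list. Of all tested genes 6.93% to 20.4% reached it. DESeq2 and limma-voom called 0 in each list, beside 0.205% to 8.55% and 0.113% to 4.24% of all genes.

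The 6 annular furrow collagens, loss of which is known to raise nlp-29, were all tested, and 0 passed in the edgeR fit with genotype alone. Their median log2 fold change was 2.10 in pfd-6;daf-2 against pfd-6, with 6 of 6 positive, where the median of all tested genes was -0.02. In the same comparison the median was 1.39 for the 9 larval molting genes, 1.49 for the 8 tested pharyngeal markers and 0.99 for the 8 body wall muscle markers, each with all tested genes positive, and their part in the collagen values was not tested. dpy-8 had 1.41, 0.743 and 1.82 CPM in pfd-6;daf-2, against 0.122, 0.189 and 0.0823 CPM in pfd-6. Its log2 fold change of 3.32 (SE 0.93, edgeR adjusted p = 0.0753) passed without replicate 3 of daf-2 and of pfd-6, at 3.06 (SE 0.69, edgeR adjusted p = 0.0417; 0.00544 to 0.261 over the alternatives). In the 6 comparisons the furrow collagens gave 0 to 3 genes with an unadjusted edgeR p under 0.05, 0 to 2 by DESeq2 and 0 by limma-voom. The matching shares of all tested genes were 6.93% to 20.4%, 0.205% to 8.55% and 0.113% to 4.24%.

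Among markers of tissues, calls in the edgeR fit with genotype alone fell mostly on the sperm list, of which 9 of 10 genes were tested. In pfd-6;daf-2, 8 of the 9 rose against daf-2, beside 3.11% of all tested genes called, and 5 against pfd-6, beside 3.29%. Against N2, 2 rose (msp-53 and msp-59, which encode major sperm proteins), beside 3.19%. Without replicate 3 of daf-2 and of pfd-6, all 10 sperm markers were tested. Of these, 3 then rose against daf-2, 1 against pfd-6 (beside 3.86% of all genes) and 7 against N2 (beside 8.18%). The replicate block gave 8 against daf-2, 8 against pfd-6 and 4 against N2, beside 5.39%, 9.91% and 6.61%. In the edgeR fit with genotype alone, rol-6 of the 11 epidermal markers and mlt-9 of the 9 larval molting genes rose against pfd-6. Each was the only call of its list, beside the same 3.29%. No tested marker of pharynx (8), intestine (9), neurons (9), body wall muscle (8) or oocytes and germline (10) passed in any comparison there. No list had other calls in that fit. With the block, 3 pharyngeal, 4 neuron, 1 intestinal, 1 muscle and 1 epidermal marker rose in pfd-6;daf-2 against pfd-6, beside 9.91%. It also gave 1 intestinal and 1 muscle marker against daf-2, beside 5.39%, and 1 neuron and 1 muscle marker against N2, beside 6.61%. Without replicate 3 of daf-2 and of pfd-6, 2 epidermal and 1 pharyngeal marker rose against pfd-6, beside 3.86%. Against N2, 1 epidermal, 1 neuron and 1 muscle marker then rose, beside 8.18%. The sperm markers summed to 70.2 to 185 CPM in pfd-6;daf-2, 2.40 to 7.41 CPM in daf-2, 4.91 to 23.5 CPM in pfd-6 and 7.24 to 27.96 CPM in N2, with ssp-19 at 0 in 3 libraries and ssp-16 in 1. The epidermal markers summed to 2738 to 2824 CPM in pfd-6;daf-2, 378 to 1535 CPM in daf-2, 319.6 to 1481 CPM in pfd-6 and 1304 to 1803 CPM in N2, with rol-6 at 0 in replicates 1 and 3 of pfd-6. Counted by gene, the epidermal list was more even, with 6 markers positive and 5 negative in pfd-6;daf-2 against daf-2, and 7 positive and 4 negative against pfd-6 and against N2. The pharyngeal markers summed to 33.7 to 218 CPM in pfd-6;daf-2, 18.8 to 56.9 CPM in daf-2, 7.26 to 48.8 CPM in pfd-6 and 19.95 to 121 CPM in N2, ranges that overlap, with phat-5 at 0 in 5 libraries and phat-1 in 3. The part of tissue makeup in the values of the peptide genes was not tested.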

How the data were processed

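Messenger RNA of whole day 1 adults was sequenced in 12 libraries, 3 from each of 4 genotypes, and the titles gave each library's genotype and replicate number. The authors deposited expected counts, which are estimates per gene that are not scaled to depth, per the file headers. Tools named in the submitters' processing notes are R 3.1.3, limma 3.24.15, RSEM 1.3.1, StringTie 1.3.3 and HISAT2 2.0.5, and the builds named are WBcel235 and ce11; no order or role is given. Strandedness is not given in the sources used here.

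After rounding to integers, 15090 of 46904 genes passed filterByExpr with a minimum count of 10. With TMM scaling, edgeR 4.0.16 under R 4.3.3 fitted 1 quasi-likelihood model to the 12 libraries, with genotype as its covariate. Adjustment was by Benjamini-Hochberg over all tested genes, at a threshold of 0.05. Each SE of an edgeR value, also in the figure of fold changes, was back-calculated. It is the absolute log2 fold change divided by the square root of the quasi-likelihood F statistic. The WBcel235 annotation supplied symbols, positions and exon lengths. Correlations used log2 CPM with a prior count of 2. A group without counts was set to 3 counts over the group for a bound; such floors cover counting error only. The model was tested on simulated data.

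The members and lists were chosen with earlier results of these data known. All 10 members are named. Each pathway list is represented by every gene past the threshold and by the gene with the smallest p that did not pass, and cnc-2, nlp-29 and abf-2 each by the 5 genes with the highest correlation. cnc-3, nlp-28, fipr-2, fipr-4, fipr-24 and the marker genes were named after their values were seen.

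Results were recomputed with DESeq2 1.42.0, with limma-voom (limma 3.58.1), with RLE size factors in edgeR, without the filter, with a filter of 1 CPM in 3 libraries, at a threshold of 0.01, with a block for replicate number, on the compared groups alone, on replicates 1 and 2 alone, and with each library left out. Replicate 3 of daf-2 and of pfd-6 were also left out together. An offset for transcript length, fitted per library as a spline with 5 degrees of freedom and run both with the block and without it, was added after the data were seen.

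Counts of any 2 libraries of a genotype differed by more than sampling noise, with a chi-square per degree of freedom of at least 21.7. The protocol speaks of biological repeats, the last sequenced later, without saying which number that was. Deviations from the genotype means correlated between same-numbered libraries at 0.33, 0.368 and 0.501 for pfd-6;daf-2 with N2, at 0.315, 0.211 and 0.137 for pfd-6;daf-2 with daf-2 and at 0.453, 0.271 and 0.31 for daf-2 with N2. As every value exceeded 0.1, the numbers were taken to pair these libraries, which the labels do not state. Blocked values stand beside these comparisons where they change a call.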

Additional observations from a re-analysis of the deposited data

How the results depend on the processing

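In the interaction and in daf-2 vs N2, pfd-6;daf-2 vs daf-2 and pfd-6 vs N2, 0 of the 10 peptide genes were called under every alternative. In pfd-6;daf-2 vs pfd-6 the count of 1 (cnc-2) moved to 3 with DESeq2, with the replicate block, with replicates 1 and 2 alone and without replicate 3 of daf-2 and pfd-6. It moved to 2 with the transcript length offset with or without the block, and to 0 with limma-voom, with an adjusted p under 0.01 and with the compared groups alone. With 1 library left out it ran from 0 to 2. The cnc-2 log2 fold change there was -3.99 to -5.98 throughout.

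In pfd-6;daf-2 vs N2 the count of 0 moved to 2 with DESeq2, the block, replicates 1 and 2 alone, the compared groups alone and without both libraries that stood apart, to 1 with the length offset with or without the block, and ran from 0 to 2 with 1 library left out. Beside these and the calls of fipr-26, fipr-24 and snf-12 in the report, the replicate block changed no call of the 10 genes or the pathway lists in the comparisons taken as paired. In pfd-6;daf-2 vs pfd-6 the numbers were not taken to pair the samples (correlations 0.299, 0.049 and 0.019), nor in pfd-6 vs N2 (0.345, 0.034 and 0.00016). The length offset moved the median of all genes in pfd-6;daf-2 vs pfd-6 to -0.24 from -0.02.

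Of 1430 recomputed values of the 10 genes over the 6 comparisons and all alternatives, 100 turned their sign, and these 100 were called in neither fit. Among them were, with limma-voom, cnc-2 (-0.26) and nlp-34 (-1.07) in pfd-6 vs N2, nlp-34 (1.13) in pfd-6;daf-2 vs pfd-6, and nlp-29 (0.022) and abf-6 (0.036) in the interaction. With the block abf-6 in the interaction was 0.026. With replicates 1 and 2 alone, abf-6 was -0.20 in pfd-6 vs N2, and nlp-27 and abf-6 were -0.52 and 0.53 in the interaction. Without both libraries that stood apart, nlp-31 and abf-6 were 0.26 and -0.27 in pfd-6 vs N2, nlp-31 was -0.051 in pfd-6;daf-2 vs pfd-6, and nlp-27 and abf-6 were -0.25 and 0.68 in the interaction. Leaving out 1 library gave nlp-31 -1.13 to 0.22 and abf-6 -0.30 to 0.66 in pfd-6 vs N2, abf-5 -0.027 to 0.25 in daf-2 vs N2 and abf-6 -0.40 to 0.62 in the interaction. The cause of these shifts was not tested.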
